A study of Mus musculus with 4 samples.

Results

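The Rab, Arf, Arl and Sar1 genes encode the small GTPases that direct vesicle traffic. They were chosen by name alone: a gene was taken where its only symbol on the array was Rab with a number and at most 1 letter from a to d, Arf1 to Arf6, Arl with a number, or Sar1a or Sar1b. This gave 53 of the 11138 genes measured, of which 41 were Rab, 6 Arf, 4 Arl and 2 Sar1 genes. SVEC is an established mouse endothelial line, the cell type that lines vessels. Cultures were exposed to lipopolysaccharide (LPS), which is shed from the outer membrane of Gram-negative bacteria, or left as control, and amplified RNA of both was hybridised together in 2 dyes after 4 h and after 24 h. A dose of 50 ng/ml LPS is labelled for 3 arrays, and the second 4 h array carries no dose. As far as the labels say, all groups were the same SVEC line and differed by LPS and time only. The labels do not describe how the line was made or whether it was modified.

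Each time had 2 arrays. The first carried LPS in Cy5, and the second, a dye reversal with LPS in Cy3, was turned in sign. No label names a separate culture, so each time was treated as 1 RNA pair measured in both dye orientations. The SD given with a mean is therefore the technical spread between 2 arrays, and no test of a single time is possible. Values are log2 ratios of LPS over control, each array centred on its median, so that 1 stands for a 2-fold difference. The direction is likely and not stated: it follows from the labels, which put LPS in Cy5 on unreversed arrays. The 2 columns of a time correlated at -0.23 at 4 h and -0.04 at 24 h before the sign was turned, which bears on whether they run opposite ways and not on which one is LPS over control. A gene was called higher or lower where its mean was at least 2-fold and each array at least 1.5-fold the same way.

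Small GTPases of these families are switches. An exchange factor loads GTP and the protein then holds effectors such as tethers, motors or coats on a membrane, until a GTPase-activating protein (GAP) ends the signal. Rab proteins carry prenyl anchors and are drawn off membranes by GDP dissociation inhibitors, while most Arf proteins carry a myristoyl anchor and Sar1 starts the COPII coat at the endoplasmic reticulum (ER). In endothelial cells this machinery also serves Weibel-Palade bodies, the storage granules for von Willebrand factor and P-selectin, on which Rab27a and Rab3d are found.

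The 6 members called at either time are shown here by the 250 bases before their RefSeq start (assembly GRCm38.p6), since they stand for the results that follow and differ in the GC box, the motif GGGCGG, searched on both strands and printed in capitals. The array table gives no oligonucleotide sequences. Each line runs 5′ to 3′ in the direction of the gene.
Arl1, a trans-Golgi GTPase, chr10:88731164-88731413, plus strand: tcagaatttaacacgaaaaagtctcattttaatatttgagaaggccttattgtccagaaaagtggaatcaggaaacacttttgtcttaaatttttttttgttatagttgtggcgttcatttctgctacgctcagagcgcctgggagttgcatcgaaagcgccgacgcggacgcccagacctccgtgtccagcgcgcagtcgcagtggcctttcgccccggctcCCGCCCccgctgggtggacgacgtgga
Rab1a, of ER-to-Golgi transport, chr11:20201162-20201411, plus strand: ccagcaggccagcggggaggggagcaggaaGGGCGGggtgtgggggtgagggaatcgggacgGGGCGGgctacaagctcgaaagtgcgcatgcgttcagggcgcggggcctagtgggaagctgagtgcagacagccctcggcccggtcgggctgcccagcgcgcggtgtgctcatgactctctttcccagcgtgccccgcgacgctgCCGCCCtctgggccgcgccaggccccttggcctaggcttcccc
Arf4, of the early Golgi, chr14:26637884-26638133, plus strand: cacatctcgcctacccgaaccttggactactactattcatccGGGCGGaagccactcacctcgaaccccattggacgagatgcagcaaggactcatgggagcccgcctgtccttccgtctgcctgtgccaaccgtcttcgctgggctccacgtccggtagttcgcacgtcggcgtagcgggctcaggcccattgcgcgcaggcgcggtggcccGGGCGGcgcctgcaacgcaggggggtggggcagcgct
Rab3c, of regulated exocytosis, chr13:110280207-110280456, minus strand: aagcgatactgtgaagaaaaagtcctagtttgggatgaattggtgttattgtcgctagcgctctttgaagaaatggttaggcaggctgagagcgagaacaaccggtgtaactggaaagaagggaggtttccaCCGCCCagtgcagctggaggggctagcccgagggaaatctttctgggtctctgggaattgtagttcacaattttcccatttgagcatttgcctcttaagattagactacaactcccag
Rab3d, of regulated exocytosis, chr9:21918184-21918433, minus strand: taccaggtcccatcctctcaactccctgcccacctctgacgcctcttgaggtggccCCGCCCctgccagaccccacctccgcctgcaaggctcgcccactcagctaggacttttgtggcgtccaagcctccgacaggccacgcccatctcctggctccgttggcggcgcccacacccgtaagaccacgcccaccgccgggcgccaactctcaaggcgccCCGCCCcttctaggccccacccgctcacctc
Rab32, of lysosome-related organelles, chr10:10558208-10558457, minus strand: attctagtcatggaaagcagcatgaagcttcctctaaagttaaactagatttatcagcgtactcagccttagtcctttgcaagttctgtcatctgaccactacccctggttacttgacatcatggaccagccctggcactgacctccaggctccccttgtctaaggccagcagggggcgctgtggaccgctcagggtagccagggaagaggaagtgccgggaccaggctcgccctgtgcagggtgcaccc
The Rab1a window holds 3 GC boxes, those of Arf4 and Rab3d hold 2 each, those of Arl1 and Rab3c hold 1 each, and that of Rab32 holds 0. The motif occurs in 32.7% of all 32851 RefSeq promoter windows of this length. A match is a run of letters and no measured binding site.

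At 4 h, 3 of the 53 members were higher (Arl1, Rab1a and Arf4, all of the ER and Golgi) and 2 were lower (Rab3c and Rab3d, both of regulated exocytosis). The other 48 passed the rule in neither direction. The share called was 5.66% higher and 3.77% lower, beside a background of 8.74% higher and 5.77% lower over all genes, so the count of called members was not above that of genes at large. The median member stood at 0.07 and the median of all genes at -0.0013. Members lay between -2.43 and 2.78, 35 of them (66.0%) had a mean within 0.5 of 0, against 60.3% of all genes, and 31 (58.5%) had a mean above 0, against 49.6%.

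**Figure D1:**
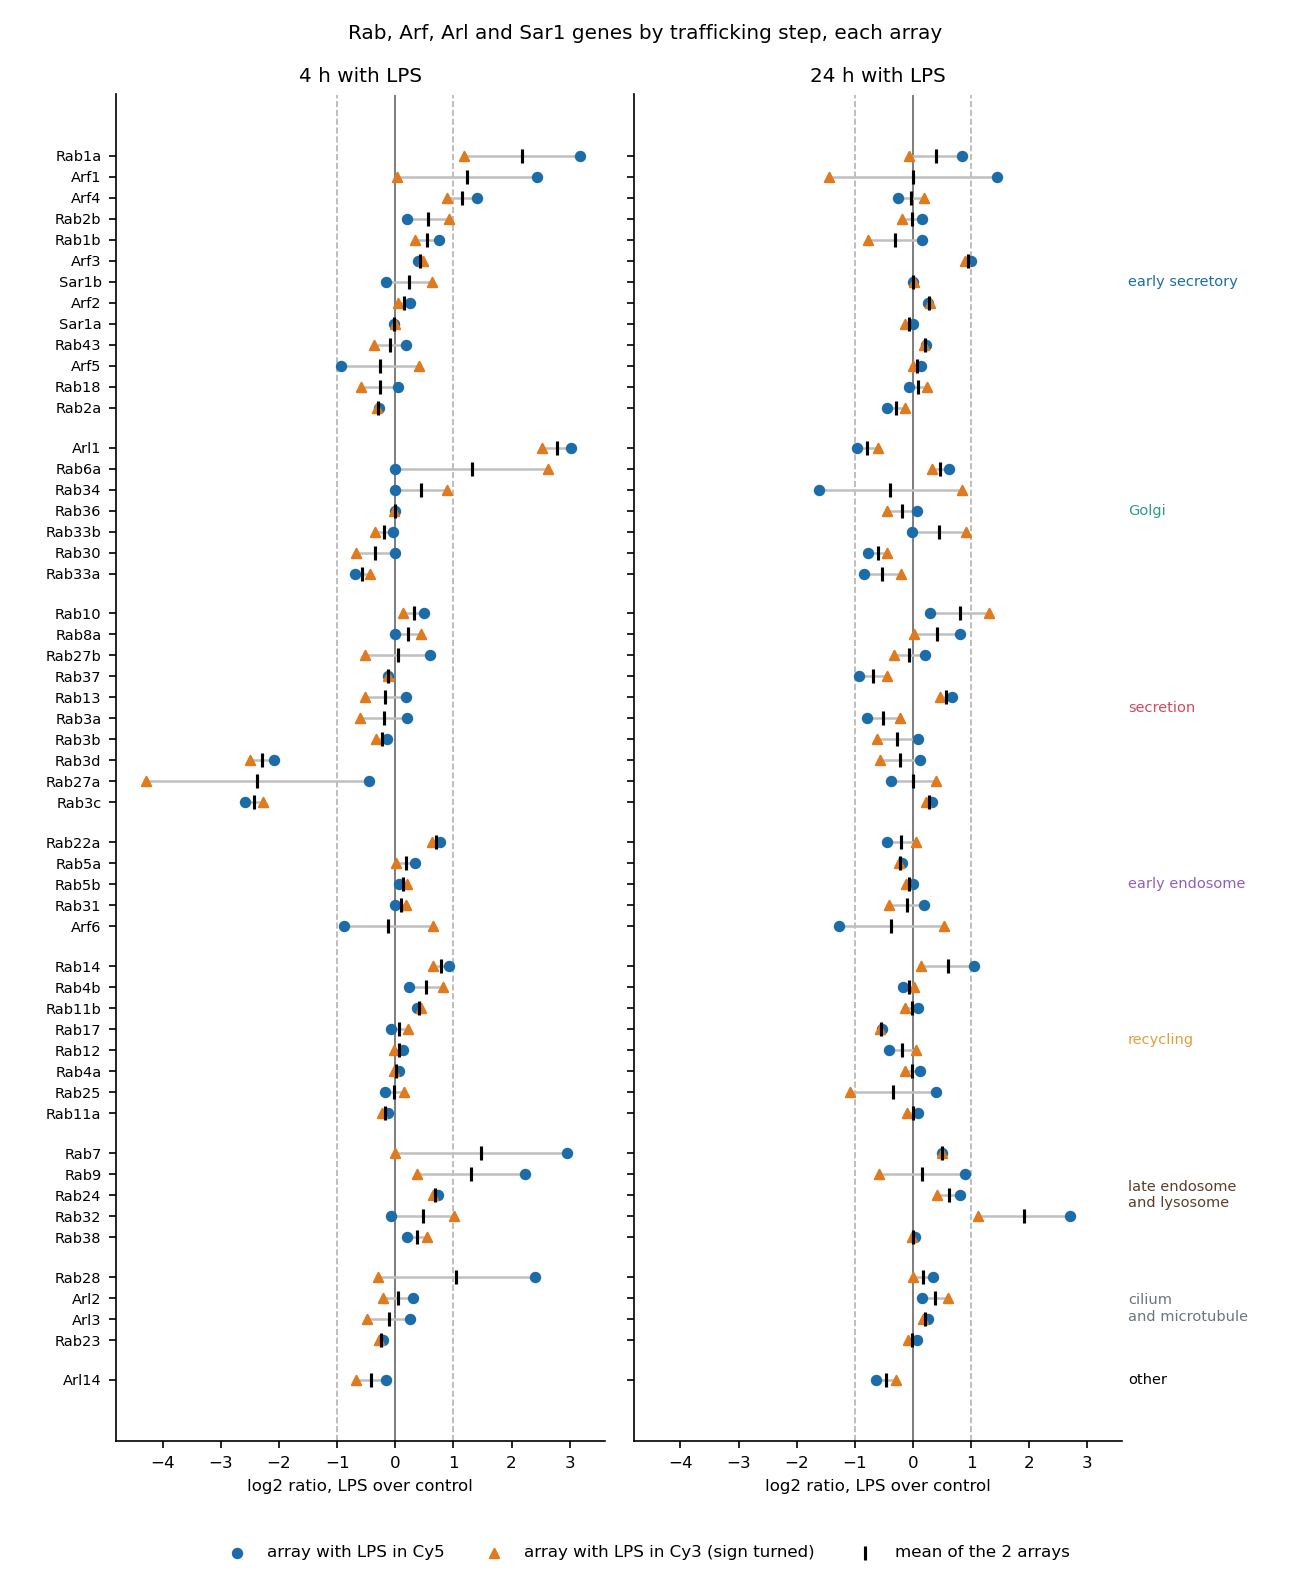
Log2 ratio of LPS over control (horizontal axis) for each of the 53 members, in rows by trafficking step, at 4 h and at 24 h; points are single arrays, black ticks the mean of 2 arrays and dashed lines 2-fold. Arl1, Rab1a and Arf4 stand to the right and Rab3c and Rab3d to the left at 4 h, with Arf4 and Rab1a on the other side of 0 when arrays are centred on abundant transcripts, and Rab32 stands to the right at 24 h.

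The 4 h directions depend on what is taken as unchanged. Of 29 measured abundant transcripts outside translation (actins, tubulins, glycolytic enzymes and the like), 19 were called higher and 1 lower at 4 h, with a median of 2.04, while their median at 24 h was 0.17. Centring each array on those transcripts instead moved the median of all genes by -2.24 at 4 h and by -0.19 at 24 h. On that scale Rab1a stood at -0.06 and Arf4 at -1.10 at 4 h, the opposite side of 0, and Arl1 at 0.53, while Rab3c and Rab3d stood at -4.67 and -4.54. No member was then higher at 4 h and 46 were lower, beside 57 genes higher and 9846 lower in all (88.4% of genes lower). Directions at 4 h are therefore given relative to the median gene, and which centring is right was not tested.

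Among the 13 members of the early secretory pathway, which moves cargo from the ER to the Golgi, Rab1a and Arf4 were called higher at 4 h relative to the median gene. Rab1a, which tethers ER-derived vesicles at the Golgi, measured 3.18 with LPS in Cy5 and 1.19 with LPS in Cy3, a mean of 2.18 ± 1.41 (SD, 2 arrays) or 4.54-fold. Its 4 spots ran 3.25 and 3.11, then 1.33 and 1.04. Both arrays placed Rab1a above 2-fold, by amounts that differed between dyes. Arf4, which works in pairs with other Arf proteins at the early Golgi, measured 1.40 and 0.88, a mean of 1.14 ± 0.37 or 2.21-fold. On the second array alone Arf4 was short of 2-fold, and with quantile normalization it was not called. Arf1, which recruits the COPI coat, measured 2.44 and 0.03 at 4 h and had a mean of 1.23 ± 1.70, so that only 1 dye orientation carried it.

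The other early secretory members stayed between -0.29 and 0.57 at 4 h. Rab1b, the close relative of Rab1a, measured 0.76 and 0.35 (mean 0.55 ± 0.29), and Rab2b stood at 0.57 while Rab2a, its paralogue, stood at -0.29. The COPII GTPases Sar1a and Sar1b were near the median gene, at -0.01 and 0.23. Over the step the median was 0.23 at 4 h and 0.00 at 24 h, when none of its 13 members was called. Both arrays of Arf3, at 1.0 and 0.89, agreed at 24 h on a mean of 0.95 ± 0.08, just under the 2-fold line. That mean averages 2 oligonucleotides that differed, at 2.08 and -0.19.

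Arl1 led the 7 Golgi members and had the largest mean of all 53 at 4 h. Active Arl1 holds golgin tethers at the trans-Golgi. It measured 3.03 and 2.52 at 4 h, a mean of 2.78 ± 0.36 or 6.85-fold, and -0.97 and -0.60 at 24 h, a mean of -0.78 ± 0.26. Every array at 4 h was above 0 and every array at 24 h below it. The agreement of the 4 h arrays hides a split between spots: on the first array the 2 spots read 6.06 and a ratio of exactly 1, and on the second 2.45 and 2.60. With ratios of exactly 1 taken as not measured, the 4 h mean of Arl1 was 4.28.

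The other Golgi members were not called at either time. Rab6a, of retrograde traffic to and within the Golgi, measured 0.00 and 2.63 at 4 h, where both spots of the first array held a ratio of exactly 1. Rab34 measured -1.62 and 0.84 at 24 h. Its arrays pointed opposite ways, and it was 1 of 2 members called when the reversed array was left unturned at 24 h (3.77% of members, against 1.7% of all genes). The other was Arf1, at 1.44 and -1.45. Both had spots far apart on 1 of these arrays. Rab34 read -2.88 and -0.37 with LPS in Cy5, and Arf1 read 0.36 and -3.25 with LPS in Cy3. At 4 h the unturned arrays called 0 members, against 1.83% of genes. Rab33a was the one Golgi member below -0.5 at both times, at -0.57 and -0.53.

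Regulated exocytosis held the lowest values at 4 h. Rab3c, a Rab3 protein of secretory vesicles, measured -2.59 and -2.27 at 4 h, a mean of -2.43 ± 0.23 or 5.39-fold lower. Rab3d, which is found on secretory granules, measured -2.09 and -2.50, a mean of -2.29 ± 0.29 or 4.90-fold lower. All 4 spots of each gene lay at -1.66 or below, and each was past 2-fold on either array alone. At 24 h Rab3c measured 0.33 and 0.22 (mean 0.27 ± 0.08) and Rab3d 0.12 and -0.56 (mean -0.22 ± 0.48), so that neither was past the rule.

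Rab27a, which docks Weibel-Palade bodies and other secretory organelles, had a 4 h mean of -2.37 that came from 1 array. It measured -0.45 with LPS in Cy5 and -4.29 with LPS in Cy3, an SD of 2.72, and was not called. Its 2 spots on each array were alike, at -0.26 and -0.63 and at -4.09 and -4.49, so the gap lay between arrays and not between spots. At 24 h it stood at 0.01 ± 0.54.

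The remaining secretory members lay near the median gene. Rab3a and Rab3b, the other members of the Rab3 family, stood at -0.20 and -0.23 at 4 h. Of 4 Rab3 genes, 2 were thus called lower and 2 were not; the oligonucleotide sequences were not used here, so signal shared between paralogues was not tested. Rab27b, the relative of Rab27a, stood at 0.04, and Rab8a, Rab10, Rab13 and Rab37 lay between -0.17 and 0.32. At 24 h Rab10, of surface delivery, had the largest mean of the step at 0.80, from 0.30 and 1.30. The median of the 10 secretory members was -0.18 at 4 h and -0.03 at 24 h.

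**Figure D2:**
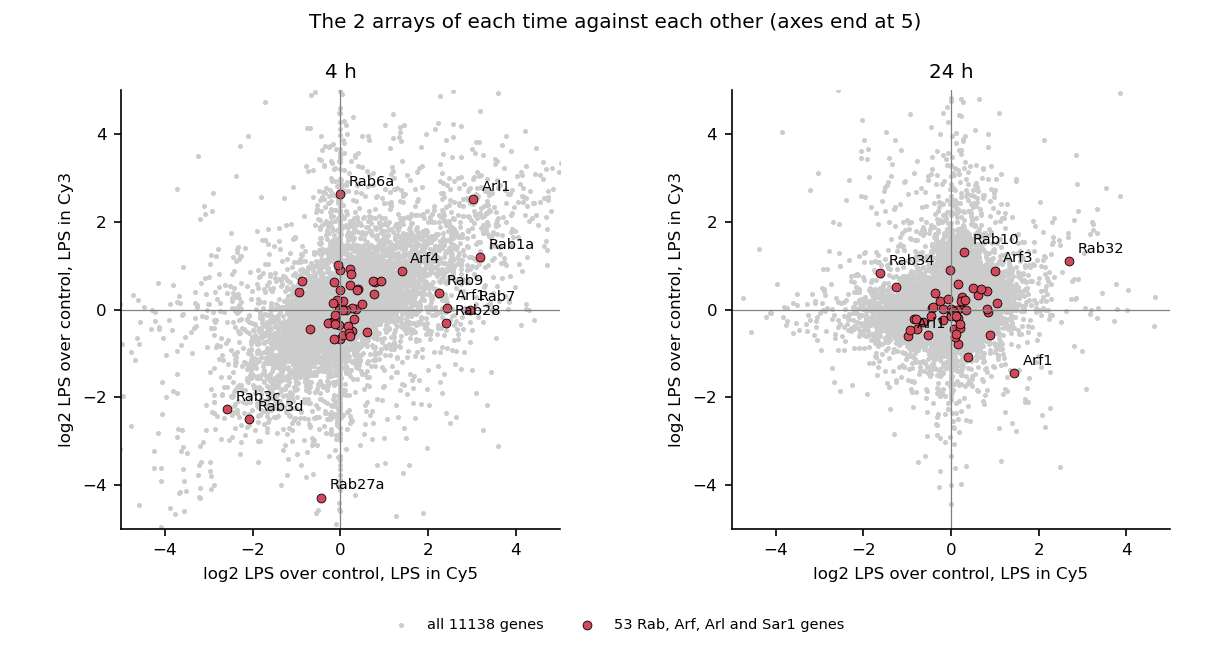
Log2 ratio of each gene on the array with LPS in Cy5 (horizontal axis) against the array with LPS in Cy3 (vertical axis), at 4 h and 24 h, with 11138 genes in grey and the 53 members in red; 92 genes at 4 h and 12 at 24 h lie beyond the axes. Arl1, Rab1a, Rab3c and Rab3d lie far from 0 on both arrays, while Rab6a, Rab7, Rab28, Arf1 and Rab27a lie far from 0 on 1 array.

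Endosomal and recycling members gave no call at either time. Of the 5 early endosome members, Rab22a was highest at 4 h, at 0.78 and 0.64 (mean 0.71 ± 0.10), and Rab5a and Rab5b, which drive early endosome fusion, stood at 0.18 and 0.14. At 24 h 0 of the 5 had a mean above 0, against 51.9% of all genes, with a median of -0.20. Arf6, which governs the plasma membrane and recycling, measured -0.89 and 0.65 at 4 h and -1.27 and 0.53 at 24 h, so its arrays disagreed in sign at both times.

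Of the 8 recycling members, Rab14 was highest at both times, with 0.93 and 0.66 (mean 0.79 ± 0.19) at 4 h and 1.06 and 0.14 (mean 0.60 ± 0.65) at 24 h. Its 4 h mean averages 2 oligonucleotides that differed, at 1.76 and -0.17. Rab11a and Rab11b, which define the recycling endosome, stood at -0.18 and 0.42 at 4 h and at -0.01 and -0.02 at 24 h. Rab4a and Rab4b, of fast recycling, stood at 0.02 and 0.53 at 4 h. Rab17 stood out at 24 h for agreement between arrays rather than size, at -0.53 and -0.57. The step's median was 0.07 at 4 h and -0.05 at 24 h.

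Late endosome and lysosome members included the only call at 24 h, Rab32. Rab32, which sorts cargo to melanosomes and other lysosome-related organelles, measured -0.06 and 1.01 at 4 h (mean 0.47 ± 0.76). At 24 h it measured 2.70 and 1.11, a mean of 1.90 ± 1.12 or 3.74-fold, and its 4 spots read 2.42, 2.97, 1.01 and 1.21. Either array alone kept Rab32 past 2-fold. Its relative Rab38 stood at 0.38 at 4 h and 0.01 at 24 h.

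All 5 members of the step had means above 0 at both times, with medians of 0.69 and 0.49. Over all genes 49.6% had a mean above 0 at 4 h and 51.9% at 24 h. The arrays disagreed in sign for Rab32 at 4 h. At 24 h they did so for Rab9, at 0.90 and -0.59, and for Rab38, at 0.04 and -0.02. Rab24, linked to autophagy, was above 0 on all 4 arrays, with 0.74 and 0.64 at 4 h and 0.81 and 0.42 at 24 h. Rab7, the main late endosome GTPase, measured 2.96 and 0.00 at 4 h, and Rab9, which returns receptors from late endosomes to the trans-Golgi, measured 2.24 and 0.38. Both had 4 h means above 2-fold, at 1.48 ± 2.09 and 1.31 ± 1.32, and both failed the rule on the second array. On the abundant-transcript scale all means between 0 and 2.24 at 4 h would lie below 0, these 5 included.

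Of the 4 members of the cilium and microtubule group, Rab28 measured 2.40 and -0.30 at 4 h, a mean of 1.05 ± 1.91, and was not called. Arl2 and Arl3, which release lipid-modified cargo, stood at 0.05 and -0.11, and Rab23, which acts on Hedgehog signalling, at -0.24. Arl14, the one member outside the other groups, stood at -0.42 at 4 h and -0.47 at 24 h.

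By the mean alone, 8 members were 2-fold higher and 3 lower at 4 h, against 11.7% and 8.09% of all genes. Of these, Rab7, Rab6a, Arf1, Rab9 and Rab28 (higher) and Rab27a (lower) were past 2-fold by the mean and held back by 1 array. The arrays of a time correlated over the 53 members at 0.46 at 4 h and 0.12 at 24 h, near the 0.48 and 0.10 over all genes. This is a description over genes that share the same arrays. On single arrays, the array with LPS in Cy5 at 4 h put 7 members at least 2-fold higher, against 13.3% of all genes, and the other put 4, against 12.4%.

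At 24 h, Rab32 was the 1 member higher (1.89%) and 0 were lower, beside a background of 1.68% higher and 0.799% lower. The other 52 were not called. Members lay between -0.78 and 1.90 with a median of -0.01, against 0.02 over all genes, and 41 (77.4%) lay within 0.5 of 0, against 74.8%. With a correlation of 0.12 between the arrays, most single members at 24 h were not separable from the spread between arrays.

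Between the times, 7 members differed by the rule that the means be at least 1 apart and both arrays of a time lie beyond both of the other. Arl1, Rab1a and Arf4 were lower at 24 h than at 4 h, by -3.56, -1.79 and -1.17, which is 11.8-fold, 3.46-fold and 2.26-fold. Rab3c, Rab27a, Rab3d and Rab32 were higher at 24 h, by 2.70, 2.38, 2.07 and 1.43, or 6.51-fold, 5.19-fold, 4.20-fold and 2.70-fold. The background was 8.23% of genes higher and 9.99% lower at 24 h. For 6 of these 7 the 4 h value was the distant one, and for Rab32 it was the 24 h value. Arl1, Rab3c and Rab3d passed the rule with each of the 4 arrays left out in turn, and the other 4 did not. Without the 4 h array with LPS in Cy3, Rab27a differed by 0.46 (1.37-fold). Without the 4 h array with LPS in Cy5, Rab1a differed by -0.80, Arf4 by -0.91 and Rab32 by 0.89. Without the 24 h array with LPS in Cy5, Arf4 differed by -0.95 and Rab32 by 0.64, also short of the rule. Centred on abundant transcripts, 43 members lay higher at 24 h than at 4 h, 1 lay lower. The share of all genes was not computed for that difference. That centring moved the median of all genes by -2.24 at 4 h and by -0.19 at 24 h. The count of 43 is therefore not read as a result about the members. Each time has 1 RNA pair, so the difference has no replicate check.

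**Figure D3:**
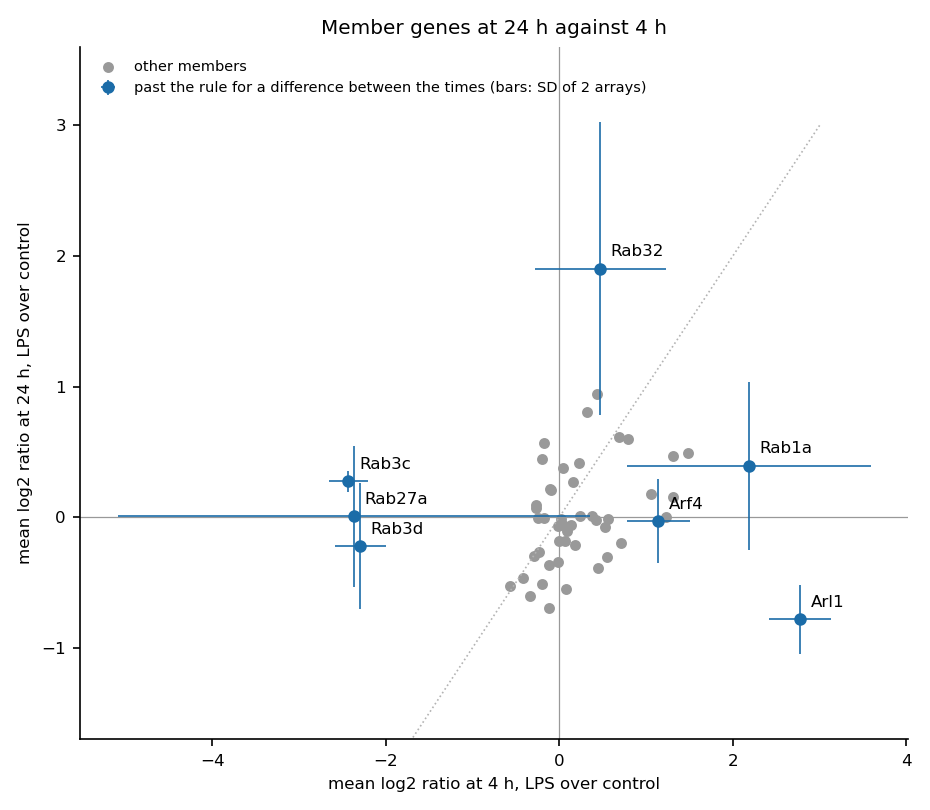
Mean log2 ratio of LPS over control at 4 h (horizontal axis) against 24 h (vertical axis) for the 53 members; the 7 past the rule for a difference carry bars for the SD of 2 arrays, and the dotted line marks equal values. Arl1, at 2.78 and -0.78, and Rab3c and Rab3d, below -2 and near 0, lie along the 4 h axis, and Rab32 lies highest at 24 h; the side of Rab1a and Arf4 at 4 h turns when arrays are centred on abundant transcripts.

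The contrast with some replication is LPS over control across the times, with the 2 RNA pairs as replicates. Because these pairs differ in time, the error of the fit holds the difference between the times and not a spread between like cultures. A gene that differed between the times thus has a large standard error, such as 0.97 for Arl1 against 0.26 for Rab24. limma on the pair means, with 1 residual degree of freedom and Benjamini-Hochberg adjustment over 11138 genes, called 0 members and 0 genes (0% of genes). At an unadjusted p under 0.05 it had 0 members and 513 genes, and the lowest adjusted p of a member was 0.761. Treating the 4 arrays as independent, limma also called 0 genes, with 1245 genes and 6 members under an unadjusted 0.05 and a lowest adjusted p among members of 0.438. Those 6 were Arf3, Rab14, Rab24, Rab32, Rab33a and Rab3d, but arrays of 1 RNA pair are not independent. With a dye term, limma called 0 genes, with 1074 genes and 4 members under an unadjusted 0.05 and a lowest adjusted p among members of 0.501; Rab32 and Rab3d were then not among them. A shared response of members was not detectable in this design.

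Of the 53 members, 50 were measured by 1 oligonucleotide and Arf3, Rab14 and Sar1b by 2, each printed in 2 adjacent spots. The 2 oligonucleotides of Arf3 differed at 24 h, with 2.08 ± 0.19 for the first (spots 1.81, 2.09, 1.93 and 2.50) and -0.19 ± 0.34 for the second. Those of Rab14 differed at 4 h, with 1.76 ± 0.13 for the first and -0.17 ± 0.52 for the second. In both genes 1 oligonucleotide passed the 2-fold rule on both arrays and the other lay near 0, and their average did not pass. Which transcript each matches was not tested. Counted by oligonucleotide, 4 were higher and 2 lower at 4 h (background 8.85% and 5.83% of 12131) and 2 higher and 0 lower at 24 h (1.8% and 0.948%).

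**Figure D4:**
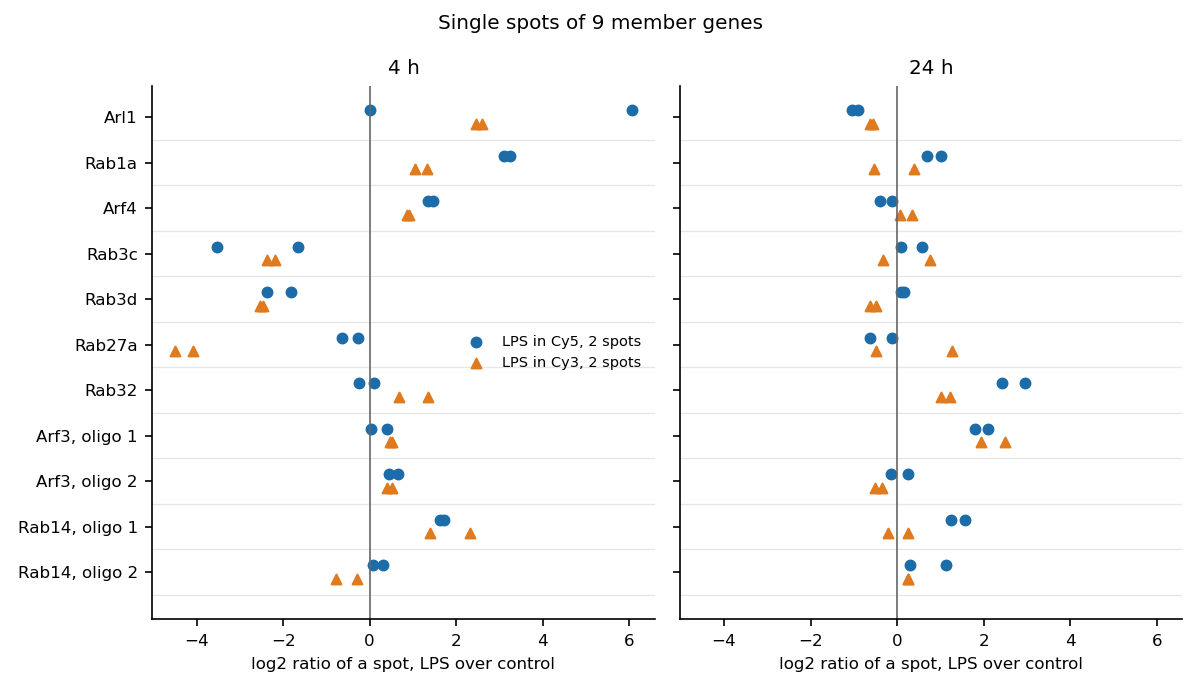
Log2 ratio of LPS over control in each spot of the members called at either time and of selected other members, by array. The selection does not cover every member whose spots disagree. On the 4 h array with LPS in Cy3 the widest gap between spots of a member was that of Rab34. On the 24 h arrays it was that of Rab30 with LPS in Cy5 and that of Arf1 with LPS in Cy3. The 2 spots of Arl1 on the first 4 h array stand at 6.06 and 0, while those of Rab1a, Arf4, Rab3c and Rab3d keep the side of 0 of their mean at 4 h; the 4 h means of Rab1a and Arf4 turn when arrays are centred on abundant transcripts.

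Of 250 listed genes that act with these GTPases, 132 were measured, of which 9 were higher and 6 lower at 4 h and 4 higher and 2 lower at 24 h. The background for these counts is the share of all genes called, 8.74% higher and 5.77% lower at 4 h and 1.68% higher and 0.799% lower at 24 h. Their medians, 0.05 and 0.10, were close to those of all genes. On the abundant-transcript scale all 9 genes called higher at 4 h turned to below 0, and the 24 h calls kept their side.

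COPI and COPII coat genes, which include the TRAPP complex here, had 5 of 25 measured higher and 1 lower at 4 h, beside 8.74% and 5.77% of all genes; the list's median was 0.26, and 0 were called at 24 h. Trappc4, a subunit of the TRAPP complex that activates Rab1, stood at 2.04 ± 0.07. Sec13, of the outer COPII coat, stood at 2.01 ± 0.83. Copb1, of the COPI coat that Arf1 recruits, stood at 1.90 ± 0.31. These 3 lay on the same side as Rab1a and Arf4 relative to the median gene, and like them turned with abundant-transcript centring. Copg2, another COPI subunit, was lower at -1.59 ± 0.24.

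Among 22 Arf activators, GAPs and effectors, 2 were higher and 1 lower at 4 h. Gga2, an Arf-bound adaptor of the trans-Golgi, stood at 2.0 ± 0.23 and Cyth3, an exchange factor for Arf6, at 1.07 ± 0.02. Arfgap1, which ends the Arf1 signal on COPI vesicles, stood at -1.40 ± 0.69. At 24 h Smap1, an Arf6 GAP, was the 1 gene called, at 1.60 ± 0.68.

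Among 21 Rab activators and GAPs, 0 were higher and 3 lower at 4 h, with a median of -0.17. They were Tbc1d8 at -3.23 ± 0.36 and Sgsm1 at -2.39 ± 0.80, both of the family of Rab GAPs, and Madd at -1.87 ± 1.72. Madd, the exchange factor for Rab3 and Rab27, measured -0.65 and -3.09 on the 2 arrays at 4 h. Of the Rab3 and Rab27 genes, Rab3c and Rab3d were called lower at 4 h. Rab3a, Rab3b, Rab27a and Rab27b were not called, with means of -0.20, -0.23, -2.37 and 0.04. A link between Madd and these genes was not tested. At 24 h Madd was higher, at 1.14 ± 0.55, and Dennd6b, another protein with the DENN domain of Rab exchange factors, was lower, at -1.23 ± 0.61.

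Of 26 Rab effectors and tethers, 0 were called at 4 h and 2 were higher at 24 h. These were Rabep2, an effector of endosomal Rab proteins, at 1.10 ± 0.08, and Gcc1, a golgin of the trans-Golgi, at 1.02 ± 0.25. Of 6 prenylation and recycling factors, Chml, a Rab escort protein, was lower at 24 h at -1.34 ± 0.29. Of 32 SNAREs, 2 were higher at 4 h, Stx7 of late endosomes at 1.48 ± 0.75 and Stx4a of the plasma membrane at 1.40 ± 0.70. Gosr1, a Golgi SNARE, was lower at -1.71 ± 0.50, and no SNARE was called at 24 h.

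**Figure D5:**
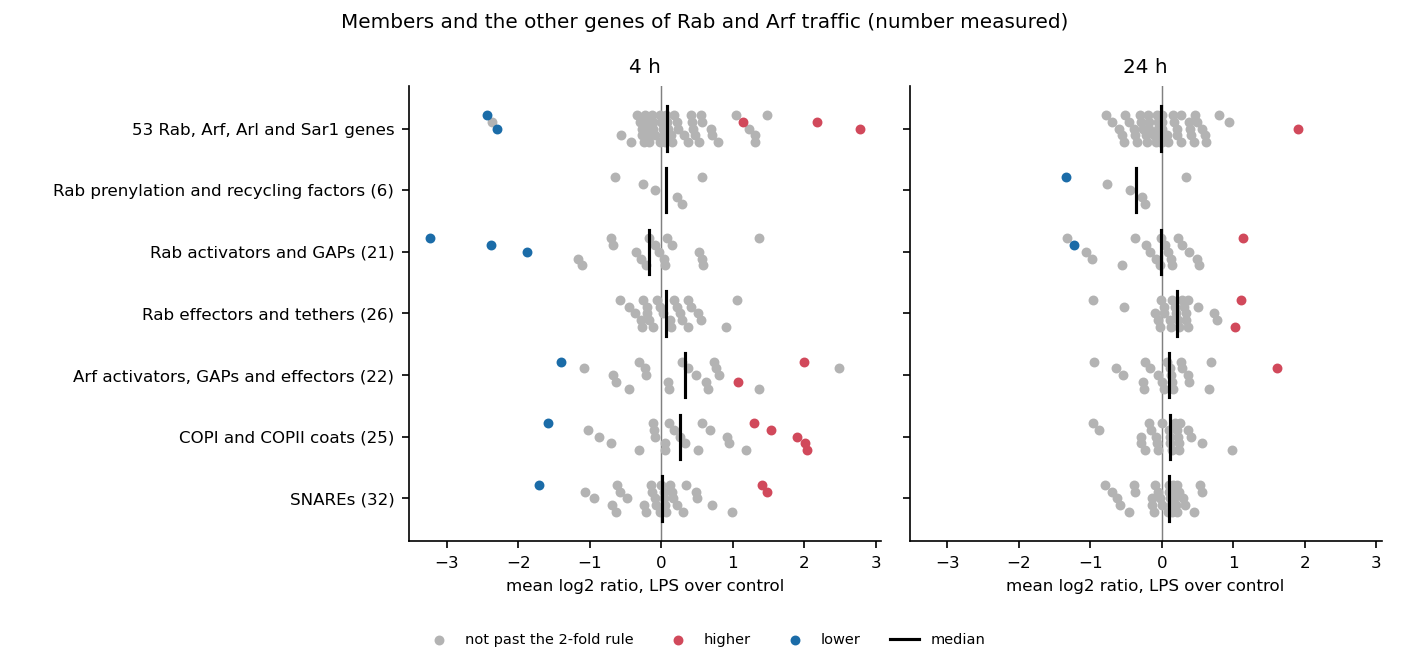
Mean log2 ratio of LPS over control (horizontal axis) for the 53 members and for the measured genes of 6 lists of their partners, at 4 h and 24 h; red and blue points passed the 2-fold rule and black bars are medians. Medians lie between -0.37 and 0.34 in every row, and the 6 partner lists together hold 15 calls at 4 h and 6 at 24 h; all 9 red points of the partner lists at 4 h, and those of Rab1a and Arf4, fall below 0 when arrays are centred on abundant transcripts.

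Ratios hold no level, so the endothelial identity of the cells could not be checked from them. Of 14 measured endothelial markers, 0 were higher and 2 lower at 4 h, and 0 were called at 24 h. Of 12 mural and fibroblast markers, 6 were higher and 1 lower at 4 h, with a median of 0.62 and a range from -1.40 to 3.05, beside the 4 h values of the early secretory members; their part in those values was not tested. Of the mural and fibroblast markers called higher at 4 h, Col3a1 stayed above 0 on the abundant-transcript scale, at 0.80. Acta2, Col1a1, Dcn, Pdgfra and S100a4 fell below 0. Leukocyte, lymphatic and epithelial markers gave 0, 0 and 1 call at 4 h. Over all genes 8.74% were called higher and 5.77% lower at 4 h, and 1.68% and 0.799% at 24 h. Of 12 genes of LPS sensing and response, 3 were higher and 1 lower at 4 h and 6 were higher at 24 h. The 3 higher at 4 h, Ifi47, Rsad2 and Saa3, stood at -0.74, -0.91 and -0.95 on the abundant-transcript scale. Of the 112 member spots, 15, 6, 4 and 5 held a ratio of exactly 1 on the 4 arrays, or 13.4%, 5.36%, 3.57% and 4.46%, with both 4 h arrays first. Over all named spots the shares were 12.1%, 2.73%, 4.22% and 4.08% in the same order.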

How the data were processed

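Amplified RNA of LPS-treated and control SVEC cells was hybridised to 4 two-colour Operon V1 arrays, per the labels. The deposited values are log2 ratios; the sources used here do not name a scanner, background correction or normalization. No intensities were used, so faint spots were kept.

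Of 32448 spots, 24344 had 1 gene symbol. The 53 members' identifiers all matched RefSeq (GRCm38.p6). Arrays were median-centred, reversed arrays turned in sign, spots averaged per gene and arrays per time (Python 3.11.15, pandas 2.3.3, numpy 2.4.6). The shared response used limma 3.58.1 in R 4.3.3. In simulated data the fit was required to recover changed genes only where the spread was small. How many it can recover at the spread of these data is not given here.

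Values per array are given for members past the rule at either time or between times, and for the largest mean of each step; from each partner list, up to 4 called genes with the largest means are named. Rab6a, Rab7, Rab9, Arf1, Arf3 and the other members given singly were chosen after their values were seen. Members and lists were chosen with earlier results of these data known. Alternatives were other centrings, scalings, thresholds, single arrays and, added after seeing the data, single oligonucleotides.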

Additional observations from a re-analysis of the deposited data

Results flagged for a closer look

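For Arl1, every array at 4 h was above 0 and every array at 24 h below 0, relative to the median gene. The 24 h mean was lower than the 4 h mean by -3.56 on the log2 scale. Centred on abundant transcripts, the 4 h mean of Arl1 was 0.53. For Rab3c, every array at 4 h was below 0 and every array at 24 h above 0, and the 24 h mean was higher by 2.70. These differences between the times were not tested, since each time has 1 RNA pair.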

How the results depend on the processing

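Over the alternatives run, 73 of 98 recomputed counts and medians moved by at most 1.5 times or by less than the spread, and 25 moved. Of the single members, 46 values held, 6 moved and 2 turned in sign. Uncentred values and the median over spots could change little, since deposited medians were 0 and 50 members had 2 spots. Centring on named spots also left values nearly as they were. Results of these settings are among those that held, so the totals say little of stability. Centring on abundant transcripts gave 0 members higher and 46 lower at 4 h, beside 0.512% and 88.4% of all genes. Member medians were then -2.17 at 4 h and -0.20 at 24 h, and 43 members lay higher and 1 lower at 24 h than at 4 h. That centring turned Arf4 to -1.10 and Rab1a to -0.060. Calling at 1.5-fold with each array on 1 side gave 8 members higher at 4 h, and 5 higher and 3 lower at 24 h. Means alone gave 8 higher at 4 h (11.7% of all genes) and 5 lower at 24 h than at 4 h. Members higher at 24 h numbered 2 with arrays scaled to one spread (2.33% of all genes), with quantile normalization (3.67%) and by oligonucleotide (1.8% of all oligonucleotides). Quantile normalization left 1 member lower at 24 h than at 4 h. For the 1.5-fold counts, and for the counts between times in these settings, the share of all genes was not computed. Those counts are not read as results about the members. Leaving out each array in turn gave 4 to 7 members higher at 4 h (12.4% to 13.3% of all genes) and 2 to 3 lower (8.94% to 9.04%), and at 24 h 2 to 4 higher (4.51% to 6.92%) and 2 to 2 lower (2.78% to 7.34%). Between the times it gave 4 to 8 members lower at 24 h (12.6% to 14.2% of all genes) and 4 to 4 higher (8.29% to 14.1%). The medians of members ran from 0.032 to 0.067 at 4 h and from -0.021 to 0.091 at 24 h. The cause was not tested. Every value is already a paired ratio of LPS over control on 1 array, and no label names separate cultures within a time. With 1 RNA pair per time, no value holds variation between cultures, and without intensities the signal over background of each spot is unknown.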

Other observations

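The members' promoters were richer in GC than promoters at large. RefSeq windows of 250 bases before the start were found for 44 of the 53 genes, 56 windows in all, with a median GC content of 60.6%, against 52.4% over all 32851 windows. The GC box GGGCGG occurred on either strand in 39 of the 56 (69.6%), against 32.7% of all windows, and in 5 of the 6 windows of the called members; it is itself made of G and C, so both values share base composition. CCAAT occurred in 44.6% of member windows against 33.8%, and CACGTG in 12.5% against 6.02%. TGACTCA, the AP-1 site, occurred in 1.79% against 4.46%, and TATAAA in 5.36% against 12.4%. All motifs were searched on both strands, and a match or its absence says nothing of a factor's binding.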
